A study of Mus musculus with 43 samples.

Results

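The 10 genes described here carry the storage, transport and sensing of iron: the ferritin subunits Fth1 and Ftl1, transferrin (Trf) and its receptor Tfrc, the iron importer Slc11a2 and exporter Slc40a1, the copper ferroxidases Cp and Heph, and the iron regulatory proteins Aco1 and Ireb2. They were chosen by name, as genes of iron handling, and were read from the 55416 genes counted in each of 43 RNA sequencing libraries of acutely purified mouse cortical glia. The study asked whether mature T and B lymphocytes, which Rag2-/- mice lack, affect the transcriptome of glia. Each library was 1 cell type of 1 mouse: 4 control and 4 Rag2-/- libraries of oligodendrocytes, 6 and 5 of oligodendrocyte precursor cells (OPCs), 6 and 6 of astrocytes, and 6 and 6 of microglia, from 12 mice in 6 numbered pairs of 1 control and 1 Rag2-/- littermate.

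Mice were 3 months old and came from a colony founded by crossing B6.Cg-Rag2tm1.1Cgn/J mice to C57BL/6J. Controls of pairs 1, 2, 3 and 5 were Rag2+/- and those of pairs 4 and 6 were Rag2+/+. Pairs 1, 3 and 4 were male and pairs 2 and 5 female, while pair 6 had a male control and a female Rag2-/- mouse. Oligodendrocytes were sequenced from pairs 1, 3, 5 and 6, and OPCs from all pairs but the Rag2-/- mouse of pair 5. Cells were taken in turn from 1 suspension of cortical grey matter on dishes coated with antibodies (immunopanning), for CD45 (microglia), PDGFRα (OPCs), GalC (oligodendrocytes) and HepaCAM (astrocytes), and each cell type was sequenced in a lane of its own, so that cell type, place in the panning order and lane cannot be told apart. Loss of Rag2 removes mature T and B lymphocytes from the whole animal and not from the brain alone.

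Iron is carried in plasma and interstitial fluid by transferrin, which cells take up through the transferrin receptor, and iron freed in endosomes reaches the cytosol through Slc11a2 (DMT1). Ferritin shells of heavy and light chains hold the iron that is not in use, and ferroportin (Slc40a1), the known iron exporter of mammalian cells, releases it with the help of the ferroxidases ceruloplasmin (Cp) and hephaestin (Heph). The regulatory proteins Aco1 (IRP1) and Ireb2 (IRP2) bind short hairpins in messenger RNAs, the iron-responsive elements, when iron is scarce: they hold back translation from elements before the coding sequence and protect messages that carry them after it. In brain, oligodendrocytes are known as the cells richest in iron, ferritin and transferrin, and use iron for myelin lipid synthesis and oxidative metabolism.

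The hairpins are shown because this control acts through them. A match to their sequence does not settle which members share it. A canonical element was searched on the transcribed strand as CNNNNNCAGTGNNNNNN, in which the first C is the bulge, CAGTGN is the loop, and the 5 bases before the loop all pair with the 5 after it by A-T, G-C or G-T. The 5 bases printed on either side were not required to pair. The capitals mark the bulged C and the loop. Sequences, written 5′ to 3′, are of GRCm39 with GENCODE M39 transcripts. Fth1, Ftl1 and Slc40a1 each held 1 in the 5′ UTR, and Tfrc held 4 in the 3′ UTR.
Fth1, chr19:9960097-9960123, + strand: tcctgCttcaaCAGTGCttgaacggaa
Ftl1, chr7:45109204-45109230, - strand: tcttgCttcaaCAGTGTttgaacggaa
Slc40a1, chr1:45964626-45964652, - strand: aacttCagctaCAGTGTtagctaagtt
Tfrc, chr16:32450038-32450064, + strand: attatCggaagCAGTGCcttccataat
Tfrc, chr16:32450417-32450443, + strand: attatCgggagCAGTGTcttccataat
Tfrc, chr16:32450482-32450508, + strand: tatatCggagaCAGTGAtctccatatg
Tfrc, chr16:32450529-32450555, + strand: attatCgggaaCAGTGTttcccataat

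Of 21627 coding genes, 148 (0.684%) held such a match in a UTR of their canonical transcript, among them 4 of the 10 members and 0 of 64 other iron genes. With 4 of the 5 pairs required, 4.94% of coding genes held one in a UTR of their canonical transcript. Over all annotated transcripts 6 of the 10 members held one, a wider search than that of the 4.94%. The matches of Aco1 and Slc11a2 were not in their canonical transcripts. Aco1 then had a match in the 5′ UTR of 1 of its 26 transcripts, and Slc11a2 had a match in the 3′ UTR of 13 of its 34 transcripts, at chr15:100293035-100293061 on the - strand. That sequence is shown for its looser stem:
Slc11a2: gccatCagagcCAGTGTgtttctatgg
A match says that these letters are in the annotated RNA and was not tested as a site. The Fth1 element was in 25 of 29 annotated transcripts, the Ftl1 element in 7 of 11, the Slc40a1 element in 9 of 15 and the Tfrc elements in 17 of 22. The counts are per gene and do not separate transcripts with and without the element.

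The libraries held 6499417 to 23118497 counts on genes (median 10447042), and a further 33.5% to 52.0% of read pairs were assigned to no single gene. Mitochondrial genes took 45.8% to 60.1% of gene counts in oligodendrocytes, 22.4% to 36.7% in OPCs, 22.5% to 45.1% in astrocytes and 6.75% to 11.7% in microglia. Levels are given as normalized CPM, the counts of a gene relative to its library's total with edgeR's TMM factors over the 43 libraries, as mean ± SD. Each fraction was highest for its own summed markers, but oligodendrocyte markers also summed to 2529 ± 649 (SD, n = 12) normalized CPM in astrocytes against 13481 ± 1815 (SD, n = 8) in oligodendrocytes, and microglia markers to 591 ± 273 (SD, n = 8) in oligodendrocytes against 7681 ± 575 (SD, n = 12) in microglia. Neuron markers summed to 1466 ± 866 (SD, n = 8) in oligodendrocytes and to 350 ± 98.5 (SD, n = 11) in OPCs. Rag2 itself was counted in 3 of 22 control libraries (at most 4 counts) and in 0 of 21 Rag2-/- libraries, so its transcript checks the labels only weakly. The control astrocyte library of pair 1 held 400 normalized CPM of red blood cell genes, against at most 6.30 in the other 11 astrocyte libraries, and leaving it out changed no member's call between cell types. Microglia libraries held 86.4 ± 94.0 (SD, n = 12) of these genes, from 9.52 to 339. Control microglia averaged 103 ± 118 (SD, n = 6) and Rag2-/- microglia 70.0 ± 69.5 (SD, n = 6). The part of red blood cell RNA in the members' levels in microglia was not tested. In such bulk samples, fewer cells of a type and less RNA per cell cannot be told apart.

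By mean normalized CPM, Fth1 and Trf were highest in oligodendrocytes, Cp in OPCs, Tfrc, Aco1 and Heph in astrocytes, and Ftl1, Slc40a1, Slc11a2 and Ireb2 in microglia. In no cell type did the genotypes differ in any of the 10 at an adjusted p of 0.05. The cell types are therefore described first, with both genotypes together, and the genotypes after them. Each contrast of cell types was tested over 19209 genes in edgeR's quasi-likelihood model, with sex and genotype as terms and p-values adjusted by Benjamini-Hochberg.

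**Figure D1:**
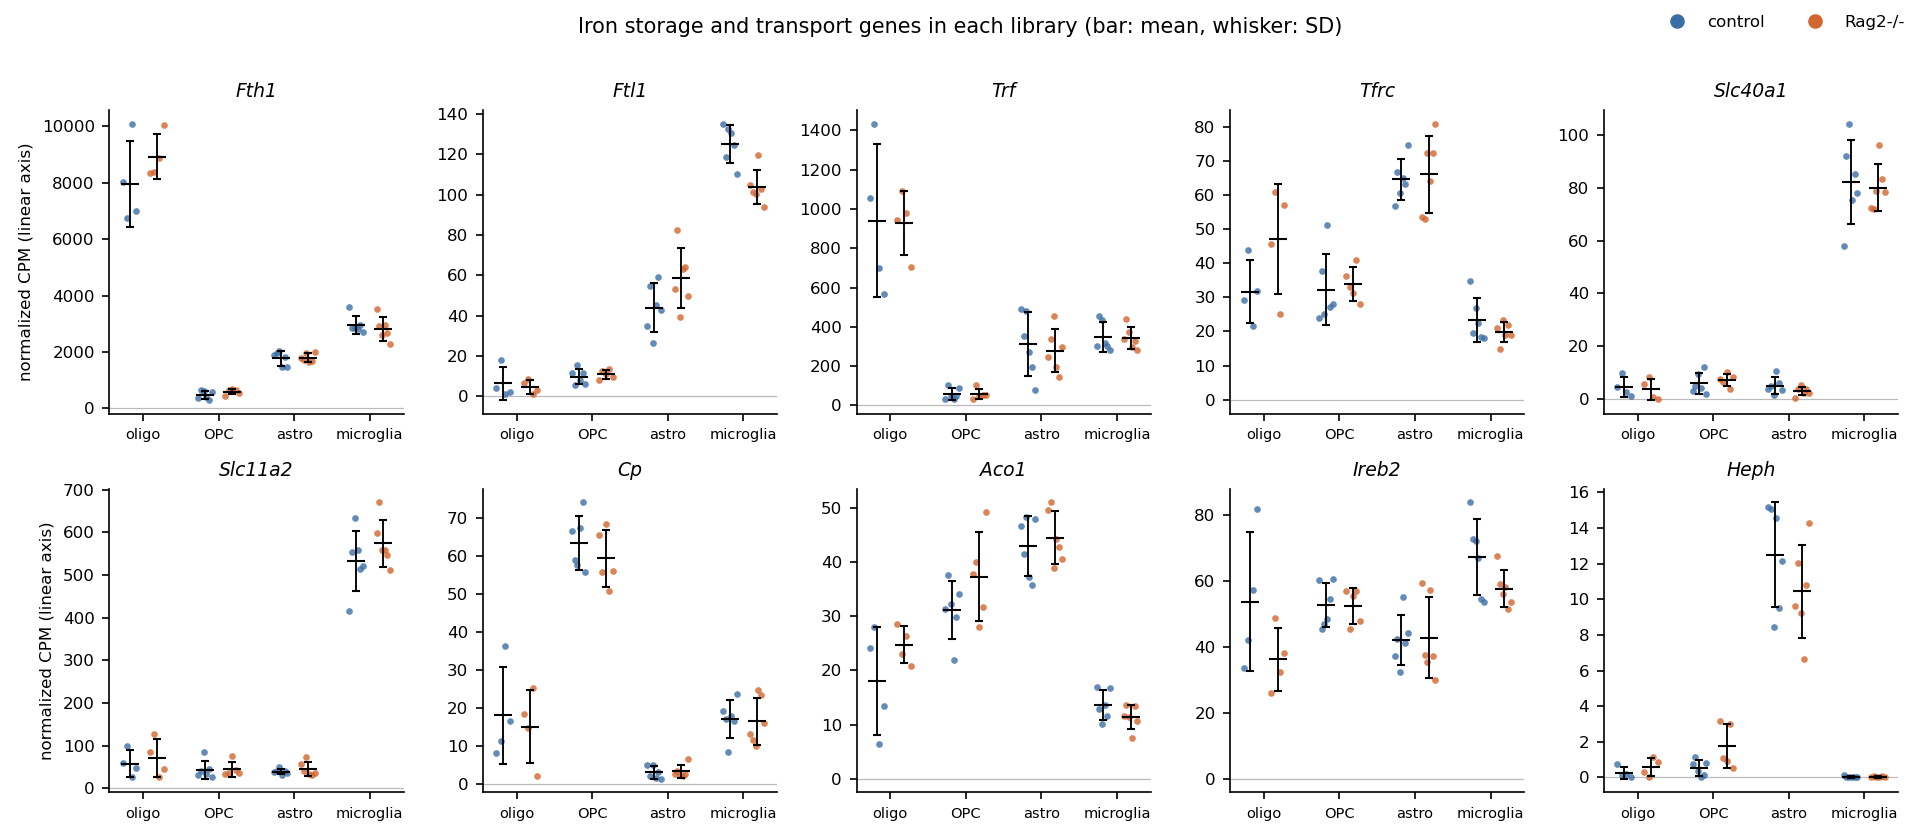
Normalized CPM (linear axis) of the 10 iron genes in each of 43 libraries, 1 panel a gene, by cell type and genotype. Points are libraries, bars group means and whiskers SDs. Fth1 and Trf stand highest in oligodendrocytes, Slc40a1 and Slc11a2 in microglia, Cp in OPCs and Heph in astrocytes, and control and Rag2-/- points overlap in every panel.

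Between oligodendrocytes and OPCs, 5 of the 10 members passed the test, 2 higher in oligodendrocytes, as 17.7% of all genes tested were, and 3 lower, as 22.7% were. Between oligodendrocytes and astrocytes 8 passed, 4 higher (28.9% of all genes) and 4 lower (22.7%). Between oligodendrocytes and microglia 9 passed, 5 higher (36.6%) and 4 lower (33.1%). Between OPCs and astrocytes 6 passed, of which only Cp was higher in OPCs (26.1%) and 5 were lower (18.1%). Between OPCs and microglia 9 passed, 4 higher (40.3%) and 5 lower (31.4%), and between astrocytes and microglia 9 passed, 3 higher (38.2%) and 6 lower (33.8%). With so many genes called, the counts of members say little by themselves, and the order and size of each gene's levels carry the description. The median log2 difference over the members was -0.45, 0.06, 0.36, -0.68, -1.34 and -0.62 in these 6 contrasts in turn, and over all genes tested it was -0.14, 0.08, 0.04, 0.13, 0.19 and 0.13.

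Fth1 encodes the ferritin heavy chain, which has the ferroxidase centre that loads iron into the shell. Its control oligodendrocyte libraries (pairs 1, 3, 5 and 6) were at 8016, 6742, 10104 and 6990 normalized CPM, and the Rag2-/- ones at 8357, 8373, 8880 and 10058. Control OPCs ran from 310 through a median of 491 to 656, and the 5 Rag2-/- OPC libraries were at 458, 643, 673, 664 and 555. Every oligodendrocyte library was thus above every OPC library. Control astrocytes ran from 1453 through 1870 to 2055 and Rag2-/- astrocytes from 1646 through 1754 to 2013. Control microglia ran from 2708 through 2843 to 3581 and Rag2-/- microglia from 2278 through 2801 to 3511. The order oligodendrocyte, microglia, astrocyte, OPC held with no overlap of libraries between any 2 cell types, in both genotypes together. Oligodendrocytes exceeded OPCs 15.6-fold, astrocytes 4.71-fold and microglia 2.92-fold by ratio of means. The log2 difference was 3.96 ± 0.12 (SE, adjusted p = 5.18e-28) from OPCs, 2.23 ± 0.11 (SE, adjusted p = 1.29e-20) from astrocytes and 1.54 ± 0.11 (SE, adjusted p = 1.73e-16) from microglia. OPCs were lower than astrocytes by a log2 difference of -1.73 ± 0.11 (SE, adjusted p = 1.13e-17).

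Ftl1 encodes the light chain, which forms the mineral core and has no ferroxidase centre. Its order was the reverse of Fth1 for oligodendrocytes: microglia averaged 115 ± 14.1 (SD, n = 12) normalized CPM, astrocytes 51.4 ± 15.1 (SD, n = 12), OPCs 10.4 ± 3.14 (SD, n = 11) and oligodendrocytes 5.65 ± 5.80 (SD, n = 8). Control oligodendrocytes of pairs 1, 3, 5 and 6 were at 4.22, 18.3, 0.969 and 2.19 and Rag2-/- ones at 6.52, 8.86, 0.974 and 3.17, from 5 to 140 counts. The pair 3 libraries stood highest in both genotypes, and the cell type overlapped only with OPCs. The log2 difference of oligodendrocytes was -4.35 ± 0.34 (SE, adjusted p = 1.95e-15) from microglia, -3.20 ± 0.32 (SE, adjusted p = 2.12e-11) from astrocytes and -0.88 ± 0.30 (SE, adjusted p = 0.0175) from OPCs, of which the last did not pass in control libraries alone (-0.60, adjusted p = 0.366).

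Ftl1 counts carry a limit that Fth1 counts do not. Of the 50-base windows in its exons, 70.0% occur again letter for letter at other places of the genome, up to 8 times, against 8.46% of those of Fth1, 1.96% of Slc11a2, 1.21% of Aco1 and 0 for the other members. Read pairs that fit several places equally well are counted for no gene, so the level of Ftl1 is that of its unique stretches and is not comparable with Fth1 as a ratio of the subunits. The processed pseudogene Ftl1-ps1, chosen after its values were seen, averaged 12.3 normalized CPM in microglia and 1.43 to 1.90 in the other cell types. Exons of genes on the other strand overlap 41.5% of the exon bases of Fth1 and 26.5% of those of Ftl1. Genes on the same strand overlap 8.13% of those of Ftl1. The strand setting of the counting was not given in the sources used here. The overlapping genes Gm36913 (beside Fth1) and Gm10252 (beside Ftl1) averaged at most 0.0914 and 2.37 normalized CPM in any cell type. Read pairs on shared bases may be counted for neither gene, so these levels do not show whether Fth1 or Ftl1 lost counts there.

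Trf, transferrin itself, was highest in oligodendrocytes, whose controls (pairs 1, 3, 5 and 6) were at 1056, 1435, 697 and 568 normalized CPM and Rag2-/- libraries at 942, 1094, 980 and 707. Control OPCs ran from 31.7 through 49.9 to 105, and Rag2-/- OPCs were at 34.2, 106, 48.6, 54.4 and 52.3. Over both genotypes astrocytes ran from 80.7 through 283 to 491 and microglia from 283 through 324 to 453. All oligodendrocyte libraries stood above all others, and OPC libraries below all microglia ones, while astrocytes overlapped OPCs and microglia. Oligodendrocytes exceeded OPCs 15.8-fold, astrocytes 3.15-fold and microglia 2.7-fold by ratio of means. Their log2 difference was 3.99 ± 0.26 (SE, adjusted p = 9.46e-17) from OPCs, 1.66 ± 0.24 (SE, adjusted p = 1.12e-07) from astrocytes and 1.44 ± 0.24 (SE, adjusted p = 9.74e-07) from microglia. The last was 0.51 (adjusted p = 0.0594) when libraries were scaled by total gene counts. Astrocytes and microglia, next to each other in the order, differed by -0.22 ± 0.22 (SE, adjusted p = 0.358).

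Tfrc, the receptor that takes up iron-loaded transferrin, was highest in astrocytes and lowest in microglia. Astrocytes ran from 52.9 through 64.5 to 80.9 normalized CPM and microglia from 14.9 through 20.2 to 34.9, with no overlap. OPCs averaged 33.0 ± 8.09 (SD, n = 11) and oligodendrocytes 39.4 ± 14.7 (SD, n = 8), and these neighbours differed by a log2 difference of 0.24 ± 0.16 (SE, adjusted p = 0.236) that turned to -0.80 when scaled by total gene counts. Astrocytes exceeded microglia by 1.60 ± 0.15 (SE, adjusted p = 2.35e-13) and OPCs by 1.00 ± 0.15 (SE, adjusted p = 2.78e-07) in log2 terms. Oligodendrocytes exceeded microglia by 0.85 ± 0.16 (SE, adjusted p = 8.27e-06), which turned to -0.10 when scaled by total gene counts and was 0.33 (adjusted p = 0.231) in control libraries alone.

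Slc11a2 encodes DMT1, the carrier of ferrous iron out of endosomes. Control microglia ran from 416 through 536 to 633 normalized CPM and Rag2-/- microglia from 511 through 559 to 670. Oligodendrocyte controls of pairs 1, 3, 5 and 6 were at 59.1, 100, 26.7 and 47.3 and Rag2-/- libraries at 84.5, 128, 27.6 and 44.9. OPCs ran from 25.9 through 36.7 to 84.2 and astrocytes from 31.4 through 39.6 to 73.2, so that every microglia library stood above all others. Microglia exceeded oligodendrocytes by 3.18 ± 0.23 (SE, adjusted p = 2.44e-16), OPCs by 3.66 ± 0.21 (SE, adjusted p = 3.39e-20) and astrocytes by 3.72 ± 0.20 (SE, adjusted p = 4.59e-21) in log2 terms. Among the other cell types the largest difference, oligodendrocytes over astrocytes, was 0.54 ± 0.20 (SE, adjusted p = 0.0233). It was 0.18 (adjusted p = 0.385) without the oligodendrocyte and OPC libraries of pair 3 and turned to -0.063 under total gene counts.

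Slc40a1, ferroportin, was measured almost wholly in the microglia libraries. Control microglia ran from 57.8 through 81.5 to 104 normalized CPM and Rag2-/- microglia from 71.9 through 78.5 to 96.1. Oligodendrocytes of pairs 1, 3, 5 and 6 were at 4.34, 9.81, 2.71 and 1.10 in controls and at 5.76, 8.22, 0.649 and 0 in Rag2-/- mice. OPCs reached at most 12.1 and astrocytes at most 10.6, so that no library of another cell type came near a microglia library. The log2 difference of microglia was 4.31 ± 0.47 (SE, adjusted p = 4.52e-11) over oligodendrocytes, 3.65 ± 0.38 (SE, adjusted p = 1.75e-11) over OPCs and 4.37 ± 0.39 (SE, adjusted p = 1.18e-13) over astrocytes. None of the 3 low cell types differed from another at an adjusted p of 0.05, though OPCs exceeded oligodendrocytes without the libraries of pair 3 (log2 difference of oligodendrocytes -1.16, adjusted p = 0.0451). By the study's methods the CD45 antibody can also bind peripheral macrophages. The 5 border macrophage markers summed to 550 ± 135 (SD, n = 12) in microglia, 77.1 ± 55.7 (SD, n = 8) in oligodendrocytes, 24.6 in OPCs and 8.31 in astrocytes. The part of such cells in the level of Slc40a1 was not tested.

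Cp, the multicopper ferroxidase that oxidises iron as it leaves the cell, was highest in OPCs. OPC libraries ran from 50.9 through 59.1 to 74.2 normalized CPM and overlapped no other cell type. Microglia averaged 16.8 ± 5.37 (SD, n = 12), oligodendrocytes 16.6 ± 10.6 (SD, n = 8) and astrocytes 3.17 ± 1.59 (SD, n = 12). OPCs exceeded astrocytes by 4.29 ± 0.28 (SE, adjusted p = 7.39e-17), oligodendrocytes by 1.92 ± 0.29 (SE, adjusted p = 7e-07) and microglia by 1.88 ± 0.25 (SE, adjusted p = 8.22e-09) in log2 terms. Oligodendrocytes and microglia differed by -0.04 ± 0.27 (SE, adjusted p = 0.902), or by -1.02 (adjusted p = 0.00123) under total gene counts. Markers of mural cells and fibroblasts, 6 genes, summed to 158 ± 58.1 (SD, n = 11) in OPCs, 131 ± 18.7 (SD, n = 12) in astrocytes, 38.7 ± 36.0 (SD, n = 8) in oligodendrocytes and 33.3 ± 10.6 (SD, n = 12) in microglia, none of the 6 was at 0 throughout OPCs, and their part in the level of Cp was not tested.

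Heph, the membrane-bound ferroxidase related to Cp, was measured in astrocytes, which ran from 6.63 through 11.4 to 15.2 normalized CPM. OPCs averaged 1.09 ± 1.06 (SD, n = 11) on 0 to 58 counts a library, and oligodendrocytes 0.427 ± 0.435 (SD, n = 8) on 0 to 7 counts. Astrocytes overlapped no other cell type. In microglia 3 of 12 libraries held 1 count each and the others 0. Pooled over libraries, astrocytes exceeded microglia 536-fold, with an exact 95% interval of 183 to 2603 that covers counting error only. The log2 difference of astrocytes was 3.54 ± 0.48 (SE, adjusted p = 5.58e-08) over OPCs and 4.84 ± 0.61 (SE, adjusted p = 5.99e-09) over oligodendrocytes. Oligodendrocytes and OPCs differed by -1.30 ± 0.57 (SE, adjusted p = 0.0643).

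Aco1, the cytosolic aconitase that becomes IRP1 when it loses its iron-sulfur cluster, was highest in astrocytes, at 35.8 through 43.6 to 51.1 normalized CPM, and lowest in microglia, at 7.58 through 12.3 to 17. OPCs averaged 34.0 ± 7.16 (SD, n = 11) and oligodendrocytes 21.4 ± 7.75 (SD, n = 8). Astrocytes exceeded microglia by 1.80 ± 0.16 (SE, adjusted p = 6.84e-14) and oligodendrocytes by 1.04 ± 0.18 (SE, adjusted p = 3.38e-06), and OPCs exceeded microglia by 1.44 ± 0.16 (SE, adjusted p = 6.34e-11) in log2 terms. OPCs and astrocytes, neighbours in the order, differed by -0.36 ± 0.16 (SE, adjusted p = 0.0536). In CPM without TMM factors OPCs (mean 43.1) stood just above astrocytes (42.0). Oligodendrocytes exceeded microglia by 0.76 ± 0.17 (SE, adjusted p = 0.000138), which turned to -0.17 under total gene counts and was 0.26 (adjusted p = 0.417) in control libraries alone.

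Ireb2, the iron regulatory protein that is broken down when iron is plentiful, was the most even member, and no pair of cell types was free of overlap. Microglia averaged 62.6 ± 10.1 (SD, n = 12) normalized CPM, OPCs 52.7 ± 5.86 (SD, n = 11), oligodendrocytes 45.0 ± 17.9 (SD, n = 8) and astrocytes 42.5 ± 9.85 (SD, n = 12). Microglia exceeded astrocytes by 0.56 ± 0.13 (SE, adjusted p = 0.000144) and oligodendrocytes by 0.49 ± 0.14 (SE, adjusted p = 0.00254) in log2 terms, the latter not in control libraries alone (adjusted p = 0.0921). The other 4 contrasts did not pass in this fit, but some passed under other settings. With counts outside mitochondrial genes, oligodendrocytes differed from OPCs by -0.69 (adjusted p = 0.000124 by edgeR). OPCs then differed from astrocytes by 0.57 (adjusted p = 0.00026 by edgeR). On that scale OPCs (mean 93.3) also stood above microglia (81.6), so the highest cell type for Ireb2 depends on the scaling.

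The members whose libraries did not overlap were also counted, beside the share of 19209 genes of which the same held. Oligodendrocytes stood wholly above OPCs for 2 members (4.85%) and wholly below for 1 (4.18%), above astrocytes for 2 (6.31%) and below for 3 (6.70%), and above microglia for 2 (13.2%) and below for 3 (14.8%). OPCs stood wholly above astrocytes for 1 (7.74%) and below for 4 (6.62%), and above microglia for 2 (20.4%) and below for 5 (17.9%). Astrocytes stood wholly above microglia for 3 (18.2%) and below for 5 (19.4%). When libraries were scaled by total gene counts alone, the median over all genes moved to -1.19 between oligodendrocytes and OPCs, to -0.93 between oligodendrocytes and microglia and to -0.58 between oligodendrocytes and astrocytes, so that log2 differences near these sizes depend on the scaling. The differences of Fth1 and Trf in oligodendrocytes from OPCs were at least 2.89 and 2.97 under all 10 alternatives.

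Because the fractions were not pure, each member's level outside its highest cell type was set beside the markers of that highest cell type, measured in the same libraries. Of 30 such levels, 19 were above the share that any of the markers kept, 7 were within the markers' range and 4 were below it. In microglia Trf stood at 37.1% and Fth1 at 34.3% of their oligodendrocyte means, while the 8 oligodendrocyte markers stood at 0.131% to 2.10%. In astrocytes Trf stood at 31.7% and Fth1 at 21.2% of the oligodendrocyte means, and the same 8 markers at 13.8% to 33.3%. Both genes were thus far above the markers in microglia and among them in astrocytes. In OPCs Fth1 stood at 6.41% and Trf at 6.35%, with the markers at 1.56% to 23.9%.

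**Figure D2:**
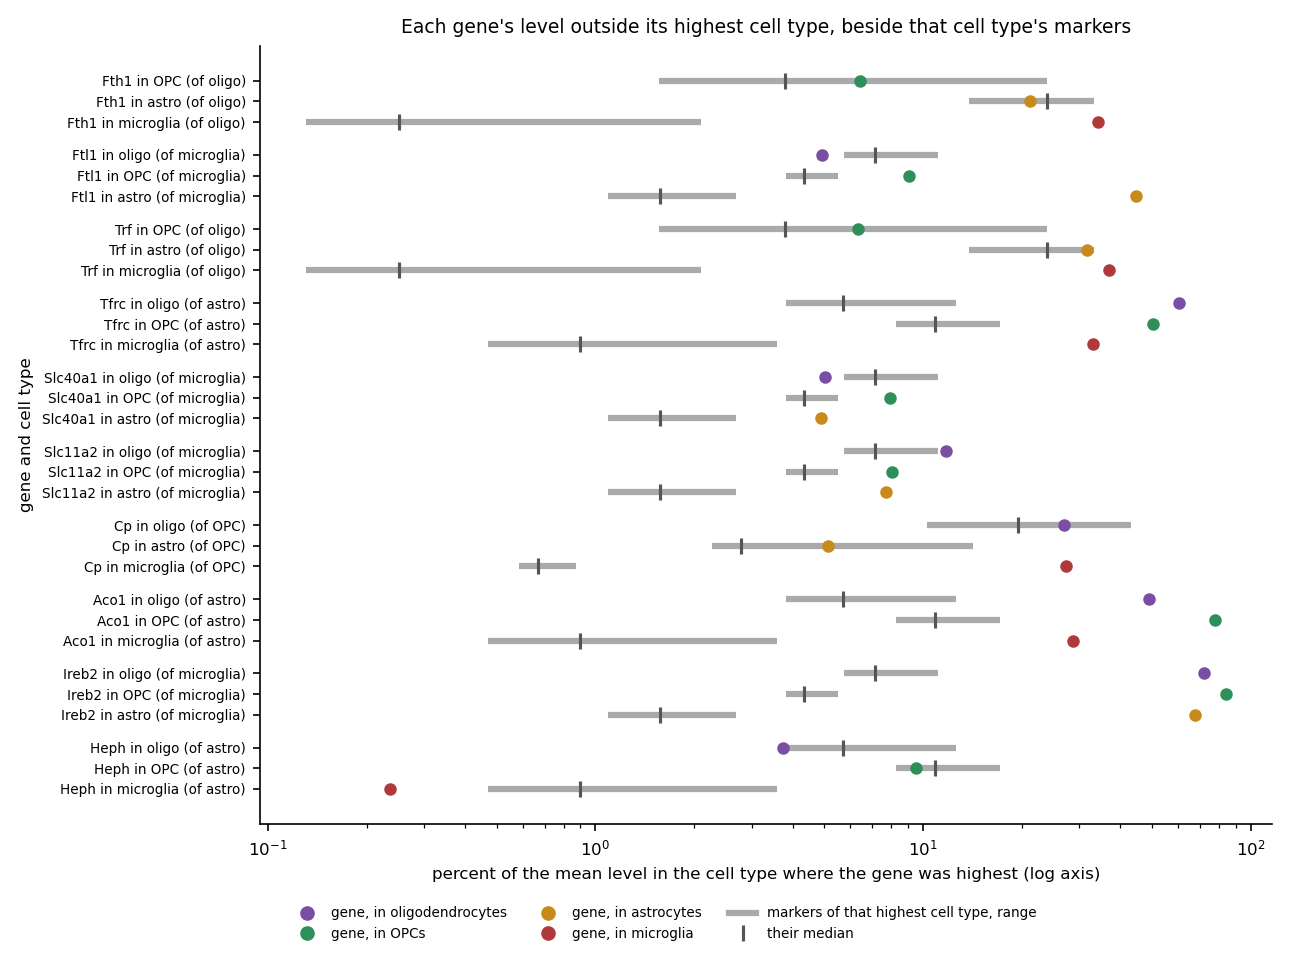
Level of each iron gene outside its highest cell type, as a percent of its mean in that cell type (log axis), beside the range and median of that cell type's markers in the same libraries. Fth1 and Trf in microglia lie far above the oligodendrocyte markers (0.131% to 2.10%), and Slc40a1 and Ftl1 in oligodendrocytes lie below the microglia markers (5.74% to 11.1%).

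Among the genes highest in microglia, Slc40a1, Slc11a2 and Ftl1 lay near the microglia markers in oligodendrocytes and above them in OPCs and astrocytes. In oligodendrocytes Slc40a1 stood at 5.02% and Ftl1 at 4.93% of the microglia means, below all 7 microglia markers (5.74% to 11.1%), and Slc11a2 stood at 11.7%, just above them. In OPCs Slc40a1 stood at 7.94%, Slc11a2 at 8.05% and Ftl1 at 9.07%, with the markers at 3.81% to 5.48%. In astrocytes, where the markers stood at 1.09% to 2.69%, Slc40a1 stood at 4.89%, Slc11a2 at 7.69% and Ftl1 at 44.8%. Cp in oligodendrocytes stood at 26.9% of its OPC mean within the OPC markers' range of 10.3% to 43.2%, and in microglia at 27.3% against 0.585% to 0.872%. Heph in oligodendrocytes, at 3.73% of its astrocyte mean, was just below the astrocyte markers (3.82% to 12.6%), and in OPCs, at 9.54%, it was within them (8.28% to 17.1%). Tfrc, Aco1 and Ireb2 stood at 28.6% to 84.2% and above all markers in every cell type.

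The oligodendrocyte and OPC libraries of pair 3 held the most microglia markers, and some of the genes that were highest in microglia stood highest there too. The 7 markers summed to 1042 normalized CPM in the control and 958 in the Rag2-/- oligodendrocyte library of pair 3 and to 263 to 608 in the other 6, and to 756 and 767 in the OPC libraries of pair 3 and 142 to 369 in the other 9. Slc11a2 was highest in the same 4 libraries, at 100 and 128 in oligodendrocytes and 84.2 and 76.5 in OPCs. Slc40a1, at 9.81 and 8.22, and Ftl1, at 18.3 and 8.86, were highest of their genotype in the oligodendrocyte libraries of pair 3. In OPCs this did not hold throughout: Slc40a1 was at 9.55 and 10.3 in pair 3 but at 12.1 in the control of pair 5, and Ftl1 in Rag2-/- OPCs was at 10.9 in pair 3 but at 12.5 and 13.8 in pairs 2 and 4. The part of other cells' RNA in these levels was not tested beyond leaving the pair out.

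**Figure D3:**
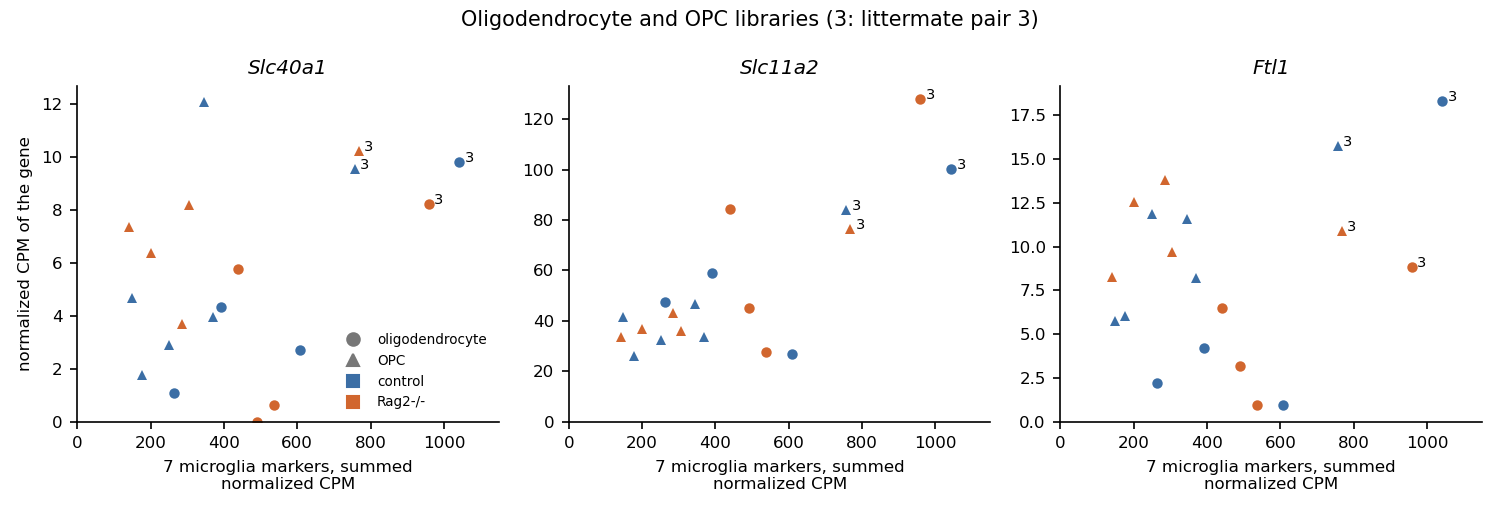
Slc40a1, Slc11a2 and Ftl1 (normalized CPM) against the summed level of 7 microglia markers in the 8 oligodendrocyte and 11 OPC libraries, 1 point a library, with pair 3 labelled. The pair 3 libraries lie farthest right, at 756 to 1042, and hold the highest Slc11a2 of both cell types.

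Per kilobase of the canonical transcript, Fth1 was the most abundant member in every cell type, at 9085 normalized CPM per kb in oligodendrocytes, 3112 in microglia, 1928 in astrocytes and 582 in OPCs. Trf came second in oligodendrocytes (364 per kb), OPCs (23.1 per kb) and astrocytes (115 per kb), with Slc11a2 (183 per kb), Trf (135 per kb) and Ftl1 (118 per kb) after Fth1 in microglia. The order in microglia depended on the length used: per kilobase of all annotated exons it was Ftl1 (85.5 per kb), Trf (60.8 per kb) and Slc11a2 (49.96 per kb) after Fth1 (821 per kb). Within each microglia library the level of Slc40a1 per kb was 5.56 ± 1.31 (SD, n = 12) times that of Tfrc, with a range of 2.34 to 7.18. In oligodendrocytes, OPCs and astrocytes the same ratio averaged 0.145, 0.298 and 0.0860. The ratio of Ireb2 to Aco1 per kb was 4.05 ± 1.00 (SD, n = 12) in microglia, 2.34 ± 2.27 (SD, n = 8) in oligodendrocytes, 1.26 ± 0.307 (SD, n = 11) in OPCs and 0.767 ± 0.197 (SD, n = 12) in astrocytes.

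Genes whose pattern over the 43 libraries was most like each member were ranked by Pearson's r of log2(normalized CPM + 1) among 14055 protein-coding genes. The points share cell type, lane and mouse, so r mainly reflects the levels of the 4 cell types. Fth1 was most like Erbin (r = 0.955, n = 43) and Trf most like Galnt6 (r = 0.960, n = 43). Slc11a2 was most like Edem1 (r = 0.985, n = 43), Slc40a1 most like Mtdh (r = 0.959, n = 43) and Ftl1 most like Id2 (r = 0.963, n = 43). Cp was most like Arhgap31 (r = 0.920, n = 43), Heph most like Frem2 (r = 0.968, n = 43), Aco1 most like Maoa (r = 0.938, n = 43) and Tfrc most like Gpt (r = 0.903, n = 43). Ireb2 had no close match, with Pak1ip1 first (r = 0.738, n = 43). Between members, Fth1 and Trf had r = 0.933 and Slc40a1 and Slc11a2 r = 0.920 over the 43 libraries, and r = 0.43 and r = 0.55 once each cell type and genotype was set to its own mean.

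The comparison of Rag2-/- with control mice is the one the study was designed for. It was tested in each cell type with sex as a covariate in edgeR's quasi-likelihood model, and p-values were adjusted by Benjamini-Hochberg. No member passed in oligodendrocytes (0 of 9 tested, against 0% of 13802 genes), in OPCs (0 of 10, against 0.00592% of 16882), in astrocytes (0 of 10, against 0.00679% of 14725) or in microglia (0 of 9, against 0.00667% of 15003). The study itself used DESeq2 with the same terms and reported genes that differed by genotype in oligodendrocytes. The 0% is thus that of edgeR's test. Heph was too low to be tested in oligodendrocytes and microglia. At an unadjusted p of 0.05 edgeR had 0, 0, 1 and 1 members past it in these cell types. The share of all genes past that unadjusted cut is not given here, so these counts say nothing about the members as a set. At an adjusted p of 0.05 DESeq2 and limma called none of the members. No member had control and Rag2-/- libraries that did not overlap, which 2.28%, 0.364%, 0.104% and 0.141% of 19209 genes had.

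**Figure D4:**
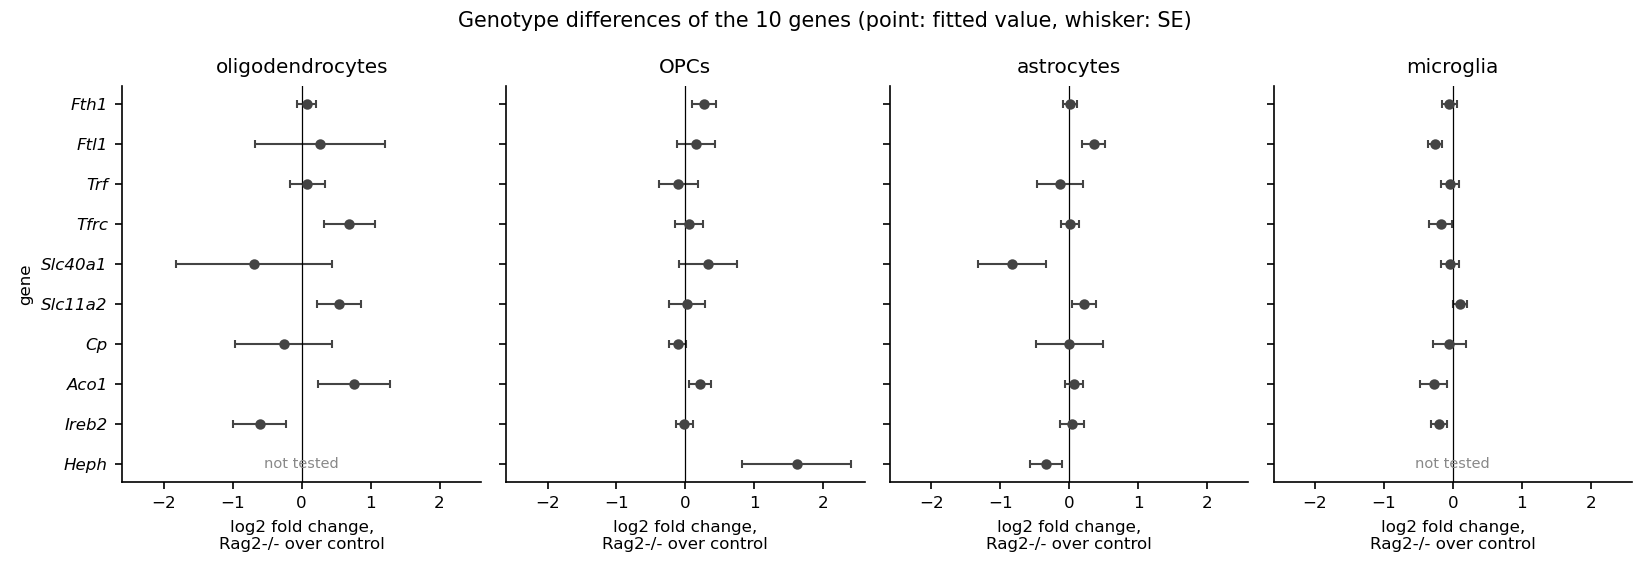
Log2 difference of Rag2-/- from control for each iron gene in each cell type, with bars of 1 SE (edgeR, sex as covariate, 8 to 12 libraries a cell type). Points lie on both sides of 0, none passes an adjusted p of 0.05, and SEs are widest for Slc40a1 (1.13) and Ftl1 (0.94) in oligodendrocytes.

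The precision differed widely between genes. For Fth1 the log2 difference was 0.07 ± 0.13 (SE) in oligodendrocytes and 0.27 ± 0.18 (SE) in OPCs. Astrocytes had 0.01 ± 0.10 (SE) and microglia -0.05 ± 0.11 (SE). For Trf it was 0.08 ± 0.25, -0.10 ± 0.28, -0.13 ± 0.33 and -0.04 ± 0.13 (SE) in the same order. In oligodendrocytes the SE was 1.13 for Slc40a1, 0.94 for Ftl1 and 0.70 for Cp, against 0.13 for Fth1 in the same libraries. In microglia Slc40a1 (-0.04 ± 0.13, SE) and Slc11a2 (0.11 ± 0.11, SE) had narrow errors around 0.

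In oligodendrocytes Tfrc was at 29.1, 43.8, 21.7 and 31.8 normalized CPM in the controls of pairs 1, 3, 5 and 6 and at 45.5, 60.9, 25 and 57.0 in their Rag2-/- littermates, higher in 4 of 4 pairs, which 10.7% of genes were in one direction or the other. The largest ratio, 1.79, was that of pair 6, whose mice also differed in sex. For Tfrc in oligodendrocytes, the fit with sex as a covariate was as follows. The log2 difference of Tfrc was 0.69 ± 0.37 (SE, unadjusted p = 0.0877, adjusted p = 0.998 by edgeR). Aco1 (0.76 ± 0.52, SE), Slc11a2 (0.54 ± 0.32, SE) and Ireb2 (-0.61 ± 0.39, SE) had the next largest differences for their errors. In OPCs the largest was that of Heph, 1.61 ± 0.78 (SE, unadjusted p = 0.0569, adjusted p = 1.00 by edgeR), on a mean of 0.538 ± 0.443 (SD, n = 6) in controls and 1.76 ± 1.24 (SD, n = 5) in Rag2-/- mice. Markers of some other cells, but not of all, were also higher on average in the Rag2-/- OPC libraries. Not higher were those of microglia (341 in controls, 340 in Rag2-/- mice) and neurons (356 and 343). Nor were those of red blood cells (11.9 and 9.44) or of choroid plexus and ependyma (16.3 and 12.7). The 7 astrocyte markers summed to 2618 ± 333 (SD, n = 6) in controls and 3816 ± 1230 (SD, n = 5) in Rag2-/- mice, with ranges of 2068 to 3011 and 2387 to 5664. The 6 endothelial markers summed to 36.9 ± 17.3 (SD, n = 6) and 64.4 ± 28.9 (SD, n = 5), and those of mural cells and fibroblasts to 134 ± 50.2 (SD, n = 6) and 187 ± 58.3 (SD, n = 5). None of the astrocyte, endothelial, mural and fibroblast markers was at 0 in all OPC libraries. The Rag2-/- libraries of pairs 1 and 4, with the highest astrocyte sums at 5664 and 3985, also had the highest Heph, at 3.19 and 3.02, while pair 2, at 3963, had 1.12. The part of these cells in the level of Heph was not tested.

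Ftl1 had the smallest unadjusted p of the members in both astrocytes and microglia. Control astrocytes of pairs 1 to 6 were at 35.0, 54.6, 26.5, 45.4, 59.2 and 43 normalized CPM and their Rag2-/- littermates at 53.2, 82.7, 39.6, 63.3, 64.0 and 49.7. Control microglia of pairs 1 to 6 were at 135, 119, 132, 130, 125 and 110 and their littermates at 105, 102, 100, 120, 103 and 93.8. Within pairs the Rag2-/- astrocytes were higher in 6 of 6, by 1.08 to 1.52-fold, and the Rag2-/- microglia lower in 6 of 6, at 0.757 to 0.917 of the control, while the groups overlapped in both cell types. The mice of pair 6 also differed in sex, for which counts of pairs, unlike the fits, are not adjusted. One direction in all 6 pairs was seen for 2.46% of genes in astrocytes and 3.02% in microglia. Opposite directions in all pairs of these cell types were seen for 10 of 19209 genes (0.0521%). The cell types were set side by side after the data were seen, so this share is not a test of Ftl1.

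The log2 difference of Ftl1 was 0.36 ± 0.17 (SE, unadjusted p = 0.0491, adjusted p = 1.00) in astrocytes and -0.26 ± 0.10 (SE, unadjusted p = 0.0151, adjusted p = 0.999) in microglia by edgeR. With the littermate pair as a block it was 0.46 ± 0.12 (SE, adjusted p = 0.996) and -0.28 ± 0.10 (SE, adjusted p = 0.973). The test of the difference between the 2 cell types, astrocyte minus microglia effect, gave 0.68 ± 0.48 (SE, unadjusted p = 0.162, adjusted p = 1.00 by edgeR), and 0 of 21368 genes passed it. It was made in 1 fit of all 43 libraries, with 1 estimate of each gene's spread over all cell types, unlike the fits within a cell type. With the littermate pair as a block no member passed it either. Over all 4 cell types, 0 members had a genotype effect that differed between cell types by edgeR's test, which 0.248% of 21368 genes passed. The copies of Ftl1 elsewhere in the genome bear on these values as well.

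**Figure D5:**
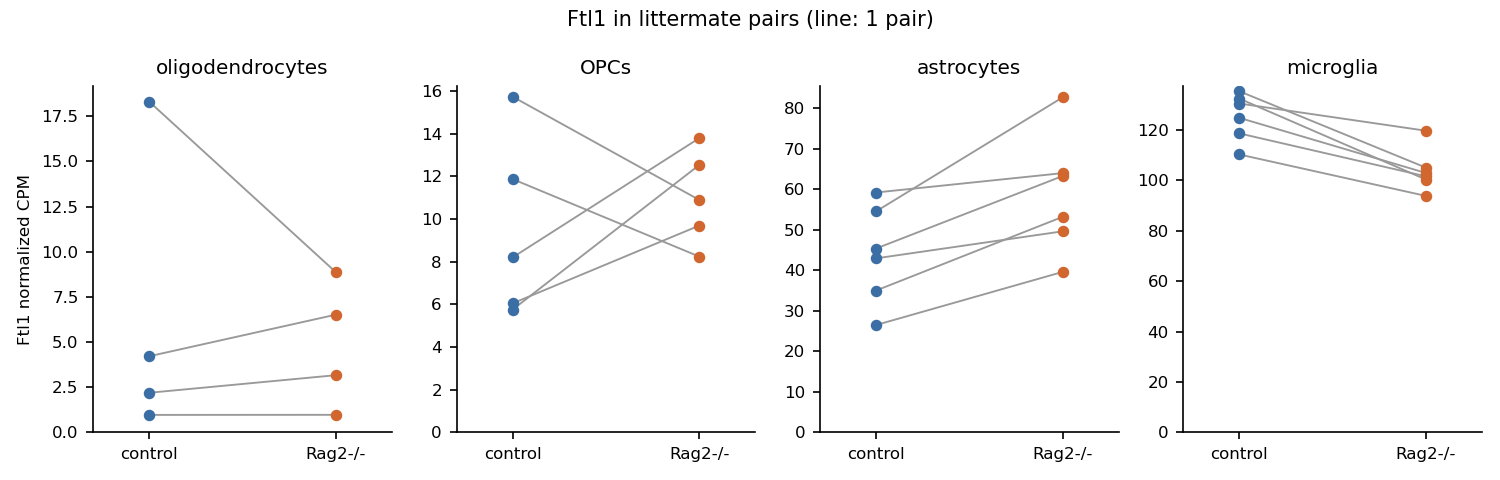
Ftl1 (normalized CPM, linear axis) in control and Rag2-/- littermates, 1 line a pair and 1 panel a cell type. All 6 lines run up in astrocytes and all 6 down in microglia, while lines run both ways in oligodendrocytes and OPCs. No cell type passed an adjusted p of 0.05.

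In microglia Ireb2 was also lower in Rag2-/- mice in 6 of 6 pairs, where 3.02% of genes ran in one direction in all pairs. Pair 6, whose mice differed in sex, was nearly equal, at 53.7 in the control and 53.6 normalized CPM in the Rag2-/- mouse. The log2 difference of Ireb2 was -0.20 ± 0.12 (SE, unadjusted p = 0.111 by edgeR). Controls ran from 53.7 through 69.7 to 83.9 normalized CPM and Rag2-/- mice from 51.7 through 57.2 to 67.8, with overlap. No other member ran in one direction in all pairs of a cell type apart from Tfrc in oligodendrocytes and Ftl1.

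Sex was a covariate of each fit, with 0 members called for it in any cell type by edgeR, where 0.0362%, 0.0296%, 0.0407% and 0.0467% of genes passed in oligodendrocytes, OPCs, astrocytes and microglia. The members past an unadjusted p of 0.05 were Fth1 and Slc11a2 in oligodendrocytes, Trf in OPCs and Ftl1 in astrocytes. The largest of these for its error was Slc11a2 in oligodendrocytes, with a log2 difference of female from male mice of -1.37 ± 0.35 (SE, unadjusted p = 0.00204, adjusted p = 0.474 by edgeR). Both mice of pair 3 were male. Their oligodendrocyte libraries held the highest Slc11a2 (100 and 128 normalized CPM) and the most microglia markers (1042 and 958). The part of microglia RNA in this sex difference was not tested.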

How the data were processed

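Amplified complementary DNA of each fraction was sequenced by the authors, who mapped read pairs to GRCm39 with STAR 2.7.8a and deposited, for each library, HTSeq counts per gene, whole and not normalized. The strand and overlap settings of the counting were not given in the sources used here. Per library, 33.5% to 52.0% of read pairs, on rows that name no gene, stayed out of library sizes and tests. Of 55416 gene IDs, 54749 matched GENCODE M39. No 2 libraries of a cell type agreed within sampling noise (lowest chi-square 7.72 per gene). The 10 members and all gene lists were chosen with earlier results of these data known.

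Counts were filtered (minimum count 10, minimum total 15) and fitted with edgeR 4.0.16 (TMM, quasi-likelihood, Benjamini-Hochberg) in R 4.3.3: genotype and sex within each cell type, and 1 joint fit of 43 libraries for cell types and for the interaction. The total gene counts ran from 6499417 to 23118497, and intervals cover counting error only. Mice of a pair were littermates per the study's methods. Deviations from group means correlated within pairs at a mean of 0.102, 0.112, 0.129 and 0.0890 in oligodendrocytes, OPCs, astrocytes and microglia, against -0.034 to -0.018 between other numbers, and fits with the pair as a block were alternatives. Libraries come from separate mice within a cell type. DESeq2 1.42.0, limma 3.58.1, other scalings, other filters, single genotypes and, for genotype, leaving out each library in turn were the other alternatives. Leaving out the oligodendrocyte and OPC libraries of pair 3, or the control astrocyte library of pair 1 with its red blood cell genes, the block for sex, and the astrocyte minus microglia effect were added after the data were seen. Other named genes come, of 64 other iron genes, from the 3 smallest p values for genotype in each cell type and the 2 largest called differences in each direction between cell types, and for likeness the most similar gene by r. Tests were checked on simulated counts. Statistics and figures used Python 3.11.15, numpy 2.4.6, pandas 2.3.3 and matplotlib 3.10.9.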

Additional observations from a re-analysis of the deposited data

Results flagged for a closer look

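In each of 80 groups (10 genes, 4 cell types, 2 genotypes) the highest and lowest library was compared with its neighbour by Dixon's criterion, which chance alone meets in about 1 of 20 groups, and 6 groups had a library apart. Fth1 stood at 3581 normalized CPM in the control microglia of pair 1, with the next library at 2953. Trf stood at 106 in the Rag2-/- OPCs of pair 2, with the next at 54.4. Slc11a2 stood apart in the OPCs of pair 3 in both genotypes, at 84.2 in the control (next 46.5) and 76.5 in the Rag2-/- library (next 43.2), the OPC libraries that also held the most microglia markers. Cp stood at 6.60 in the Rag2-/- astrocytes of pair 6, with the next at 3.54. Heph was at 0.157 in the control microglia of pair 1, which is 1 count, with the others at 0.

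Ftl1 differed in the direction of its genotype effect, higher in Rag2-/- astrocytes and lower in Rag2-/- microglia in 6 of 6 pairs each. The difference between the effects, 0.68 on the log2 scale, did not pass edgeR's test of it (unadjusted p = 0.162, adjusted p = 1.00), and the groups overlapped in both cell types.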

How the results depend on the processing

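Over the alternatives run, 714 of 714 single-gene genotype values of the members kept the call of the main fit, in which none passed. The replicate block (littermate pair) changed no genotype call and left 0 members with a genotype effect that differed between cell types, while genes passing that test went from 53 to 5. For sex, DESeq2 called 1 member in oligodendrocytes (Slc11a2, adjusted p = 0.0142), no filter on low counts called 1 in OPCs (Trf, log2 difference 0.71), and the pair block, under which sex rests on pair 6 alone, called 1 in astrocytes, Trf, at 2.34 against -0.22 without it. For cell types, of 600 single-gene values 23 passed newly and 11 no longer passed with their direction kept, and 28 changed sign, 22 of them passing under neither setting. The other 6 turned under total gene counts without TMM: between oligodendrocytes and OPCs Tfrc to -0.80 and Slc11a2 to -0.53, between oligodendrocytes and astrocytes Slc11a2 to -0.063 and Ireb2 to -0.62, and between oligodendrocytes and microglia Tfrc to -0.10 and Aco1 to -0.17. Members called between oligodendrocytes and OPCs were 5, against 10 under total gene counts and 8 under counts outside mitochondrial genes, both without TMM. Low counts limit Heph outside astrocytes and Slc40a1 and Ftl1 in oligodendrocytes.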

Other observations

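The 64 other iron genes, from a list chosen with earlier results of these data known, held 0 calls for genotype in any cell type by edgeR, of 45 to 54 tested. By DESeq2 or limma 0 of those named were called, also at an adjusted p of 0.05. At an unadjusted p of 0.05 edgeR had 2, 1, 2 and 2 in oligodendrocytes, OPCs, astrocytes and microglia. These counts are given without the share of all genes past that cut and say nothing about the list as a set. The genes nearest to the threshold were Hfe in oligodendrocytes, with a log2 difference of -2.15, Slc48a1 in OPCs (0.36), Flvcr1 in astrocytes (-0.74) and Steap4 in microglia (-1.14), all with an adjusted p of at least 0.998 by edgeR. Between cell types, 56 were tested, and 29, 26, 36, 21, 41 and 44 passed in the 6 contrasts, in the order of the members' contrasts above. These are 51.8%, 46.4%, 64.3%, 37.5%, 73.2% and 78.6%, against 40.4%, 51.5%, 69.7%, 44.2%, 71.7% and 72.0% of all genes tested.

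Among the genes with the largest differences, several were highest in microglia. Slc11a1 (NRAMP1), which moves iron out of phagosomes, averaged 88.5 ± 9.45 (SD, n = 12) normalized CPM in microglia and 0.71 ± 1.10 (SD, n = 12) in astrocytes (log2 difference of astrocytes -7.14, adjusted p = 6.77e-14 by edgeR). Its 4.58 ± 8.72 (SD, n = 8) in oligodendrocytes exceeded astrocytes, but not without the pair 3 libraries (0.74, adjusted p = 0.348). Cd163, the haemoglobin scavenger receptor and also a marker of border macrophages, was at 33.6 ± 13.2 (SD, n = 12) in microglia, where 5 border macrophage markers summed to 550 ± 135 (SD, n = 12). Alas1, the first enzyme of haem synthesis and named after its values were seen, was at 148 ± 15.2 (SD, n = 12) in microglia and at 12.3 to 15.7 in the other cell types.

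Among metalloreductases, Steap2 was at 28.4 ± 3.95 (SD, n = 11) in OPCs and 0.379 ± 0.383 (SD, n = 12) in microglia (log2 difference 6.19, adjusted p = 2.40e-19 by edgeR). Steap3, at 20.1 ± 6.96 (SD, n = 12), and Cybrd1, at 9.79 ± 3.37 (SD, n = 12), were highest in astrocytes and exceeded microglia by 5.16 (adjusted p = 3.73e-15) and 5.54 (adjusted p = 4.12e-12) by edgeR. Steap4, of the same family, averaged 2.02 ± 1.35 (SD, n = 12) in microglia and 0.13 to 1.02 in the other cell types. Hpx, haemopexin, averaged 2.58 ± 1.54 (SD, n = 12) in astrocytes and 0.576 ± 0.651 (SD, n = 11) in OPCs. Cpox, a haem synthesis enzyme, was at 49.6 ± 19.8 (SD, n = 8) in oligodendrocytes against 11.6 ± 4.65 (SD, n = 11) in OPCs (2.09, adjusted p = 1.64e-08), and the haem transporter Slc48a1 at 147 ± 30.8 (SD, n = 8) against 40.0 ± 9.26 (SD, n = 11) (1.89, adjusted p = 2.06e-15 by edgeR). Neo1, a co-receptor of hepcidin control, was at 230 to 248 in oligodendrocytes, OPCs and astrocytes and 8.81 ± 2.28 (SD, n = 12) in microglia.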
